A study of Mus musculus with 22 samples.

Results

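Zfhx3 and Zfhx4 encode very large transcription factors that carry both zinc fingers and homeodomains. Their H3K27me3 peaks were followed in mouse retina with and without Jarid2. The set holds every peak that the deposited table names Zfhx3 or Zfhx4, and every peak overlapping chromosome 8 from 107.60 to 109.26 Mb (mm10), called the Zfhx3 domain here. This gave 27 of the 19034 peaks, 24 in the domain and 3 at Zfhx4 on chromosome 3. Of the domain peaks, 5 are named Zfhx3 and 19 carry 11 other names, which are Psmd7, Gm8940, Gm23646, 5033426E14Rik, Gm39244, Lncbate1, Gm38042, Gm38318, Gm20686, Mir3108 and D030068K23Rik. Zfhx3 is the only protein-coding gene whose RefSeq body (108279311 to 108961636, GRCm38.p6, the assembly behind mm10) overlaps the domain, and 11 of the 19 peaks with other names overlap that body. Both loci were chosen by their change in H3K27me3 between cKO and control in these same libraries, so that contrast is given as a description and supports nothing further.

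H3K27me3 was mapped by CUT&RUN, in which a nuclease tethered to an antibody frees the DNA beside marked nucleosomes, in C57BL/6 retinas at embryonic day 18.5. All dams had received tamoxifen at 75 µg per g at midgestation (E10.5). The 5 conditional knockout animals (cKO) were Jarid2 fl/fl; Rx-cre. By the sample labels, of the 5 controls replicate 1 was Jarid2 fl/+; Rx-cre, replicates 2, 4 and 5 were Jarid2 fl/+ and replicate 3 was Jarid2 fl/fl, so every control had at least 1 floxed allele and control replicate 1 also had Cre. The protocol text gives the controls as fl/fl and names the driver Rax-CreERT2. Rax is active in retinal progenitors, so cells of other origin in the dissociated retina need not have lost Jarid2. Each sample pooled the 2 retinas of an animal. Batch 1 was 1 litter with 2 animals per genotype and both sexes, and batch 2 held 3 male littermates per genotype with 2 technical duplicates each. Duplicates of an animal agreed within sampling noise and were summed (in the 6 pairs, chi-square over its degrees of freedom was 0.876 to 0.979). Depth ran from 1688368 to 2864080 reads in peaks per animal. As a check of the tissue, Pax6, active in retinal progenitors, had a peak within 2.5 kb of a start at 4.54 CPM per kb of peak in controls (CPM being reads per 1000000 scaled reads in tested peaks). Of 6 regulators of other tissues, 4 (Myod1, Gata4, Foxa2 and Tbx5) had such a peak, at 14.4 to 35.4 CPM per kb. The mark does not measure expression, so this is no proof of cell type.

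H3K27me3 is laid down by Polycomb repressive complex 2 (PRC2) and is typical of developmental genes that are switched off or held ready. Jarid2 is an accessory subunit that helps PRC2 reach its targets, many of which have CpG-rich promoters. Zfhx3, also known as Atbf1, acts in the differentiation of neurons and in the circadian clock of the suprachiasmatic nucleus. Zfhx4 is its close paralog.

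Sequences are shown for the 2 start sites in the domain that have a RefSeq promoter entry inside a peak, so that both can be set beside the level of the peak over them. The promoter table matched 3 of the 13 gene names of the set. Each line gives the 250 bases before the start, 5′ to 3′, with every CG dinucleotide in capitals.
Zfhx3 (chr8:108714394-108714643, plus strand, GRCm38.p6): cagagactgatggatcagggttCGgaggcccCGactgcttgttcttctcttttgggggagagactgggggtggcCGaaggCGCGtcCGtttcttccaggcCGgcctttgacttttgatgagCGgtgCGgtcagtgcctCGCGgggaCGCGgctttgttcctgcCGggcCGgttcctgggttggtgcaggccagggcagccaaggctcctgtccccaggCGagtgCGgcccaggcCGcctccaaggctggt
Gm39244 (chr8:108537851-108538100, minus strand, GRCm38.p6): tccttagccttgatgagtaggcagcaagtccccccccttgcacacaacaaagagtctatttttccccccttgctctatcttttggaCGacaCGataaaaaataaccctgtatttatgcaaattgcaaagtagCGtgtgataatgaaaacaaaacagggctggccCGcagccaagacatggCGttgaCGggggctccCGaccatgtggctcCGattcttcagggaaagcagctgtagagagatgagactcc
The Zfhx3 sequence held 18 CG dinucleotides, which read the same on both strands, and 66.0% G or C. Of the 32851 promoters in the table, 21.7% had at least as many in the same window. The Gm39244 sequence, the start of a noncoding RNA inside Zfhx3, held 8 and 49.2% G or C, and 43.0% of promoters had at least as many. The peaks over these starts held 139.8 and 7.96 CPM in controls, but they differ in width, and per length they held 7.74 and 6.57 CPM per kb. A count of dinucleotides describes the letters and says nothing about what binds there.

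Within the set, peaks were lower in the cKO by varying amounts, and the tallest peak of Zfhx3 was among those with values near 0. Of the 27 peaks, 26 had enough reads to be tested, and the peak on chromosome 8 from 109000000 to 109000730 did not (3.26 CPM in controls). All 26 had a negative log2 fold change in the fit with batch as a term. Their median was -0.41, beside 0.02 over all 16307 tested peaks, of which 45.6% were negative. The values ran from -0.89 in an intron of Zfhx4 to -0.01 at a weak intronic peak of the domain (108746400 to 108747770), which held 5.55 CPM in controls and had a positive value when libraries were scaled by total count. The fit called 12 of the 26 lower and 0 higher (edgeR quasi-likelihood test, adjusted p under 0.05 over all peaks; 16 had an unadjusted p under 0.05), where it called 7.38% of all tested peaks lower and 1.46% higher. DESeq2 called 8 lower and 0 higher in the set, and 835 lower and 28 higher over the same 16307 peaks. In 13 of the 26, each cKO animal lay below each control of its batch in both batches, against 7.59% of all tested peaks. Without a batch term 0 of the 12 calls were kept (edgeR, 10 peaks with an unadjusted p under 0.05). No share of all tested peaks stands beside these counts at an unadjusted p, so they describe the set only. In a whole retina, fewer cells with the mark and less mark per cell cannot be told apart.

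Zfhx4 (RefSeq body on chromosome 3, 5218218 to 5415861) had 3 peaks, and all of them were called lower. The main peak lay over its start (5207130 to 5236080) and was 29.0 kb wide, the 192nd widest of the tested peaks. It held 487 and 488 CPM in the batch 1 controls, 737, 726 and 600.0 CPM in the batch 2 controls, 297 and 326 CPM in the batch 1 cKO animals and 545, 502 and 522 CPM in those of batch 2. Within each batch every cKO animal was below every control, and the batch 2 cKO animals were all above the batch 1 controls. Over 5 animals each, controls averaged 608 ± 122 CPM (SD) and cKO animals 438 ± 117 CPM. The fitted log2 fold change was -0.49 with a standard error of 0.07, and later values after ± beside a log2 fold change are such errors. At 21.0 CPM per kb in controls, its level per length was the 775th highest of the tested peaks.

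A second start of Zfhx4 lay 2.19 kb further on (5238270 to 5245110). This weaker peak held 36.3 and 46.6 CPM in the batch 1 controls, 44.9, 46.3 and 47.5 CPM in those of batch 2, 25.0 and 30.1 CPM in the batch 1 cKO animals and 41.0, 33.9 and 36.2 CPM in those of batch 2. Its log2 fold change was -0.40 ± 0.10, and it was not called with DESeq2 (adjusted p = 0.069) or in batch 2 alone (edgeR adjusted p = 0.0975). The intronic peak, 99.2 kb beyond (5344340 to 5355390), had the largest decrease of the set. It held 51.3 and 87.5 CPM in the batch 1 controls and 109, 109.8 and 110.0 CPM in the batch 2 controls. The cKO animals held 29.3 and 33.1 CPM in batch 1 and 55.9, 64.6 and 70.5 CPM in batch 2, so the groups were separate in each batch. The log2 fold change was -0.89 ± 0.11, the 168th lowest of 16307 tested peaks. All 3 calls held in each of the 10 fits that left out 1 animal.

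Summed over its 3 peaks, Zfhx4 averaged 745 ± 145 CPM over the 5 controls and 522 ± 140.1 CPM over the 5 cKO animals. The cKO mean was lower 1.62-fold in batch 1 and 1.35-fold in batch 2. The main peak held 78.4% to 84.7% of the sum in controls and 83.0% to 84.9% in cKO. Within 2 Mb of these peaks the table listed 3 others. A weak peak 1.61 kb before the main one, named Gm10748, averaged 14.2 ± 4.17 CPM over controls and 10.1 ± 1.84 CPM over cKO animals, and one at the promoter of Hnf4g, a nuclear receptor gene, held 6.59 ± 1.34 and 4.47 ± 1.49 CPM. Neither was called. The third, an intergenic peak named Gm22074 1525 kb beyond the intronic one (6880660 to 6893300), held 129 ± 49.8 and 43.9 ± 19.1 CPM and was called lower, with the 12th lowest log2 fold change of all tested peaks (-1.55 ± 0.16). Its batch 1 controls held 44.8 CPM (replicate 1) and 123 CPM (replicate 2).

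Zfhx3 has several starts, and its peaks did not move alike. The largest peak of the domain (108690020 to 108703440, 13.4 kb wide) lay over one of them and held 36.7 CPM per kb in controls, the 37th highest level per length of the tested peaks and near the 35.4 CPM per kb at Foxa2. It held 551 and 509 CPM in the batch 1 controls, 508, 484 and 413 CPM in the batch 2 controls, 458 and 474 CPM in the batch 1 cKO animals and 504, 479 and 427 CPM in those of batch 2. The cKO animals were below both controls in batch 1 and among the controls in batch 2. The log2 fold change was -0.07 ± 0.07, and the peak was not called in any setting that was run.

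The next peak (108705010 to 108723060), 1.57 kb further on, holds the start with a RefSeq promoter entry whose sequence is printed above. That start lies inside the RefSeq body, which begins at 108279311. It held 122 and 119.5 CPM in the batch 1 controls and 161, 142 and 154 CPM in the batch 2 controls. The cKO animals held 65.6 and 82.2 CPM in batch 1 and 152, 139 and 126 CPM in batch 2. The groups were separate in batch 1 and overlapped in batch 2, with the mean 1.64-fold and 1.10-fold lower. Its log2 fold change of -0.32 ± 0.10 was called in the fit with all animals but in only 4 of 10 fits without 1 animal. The call was lost without control replicates 1, 2 or 3 or cKO replicates 1, 2 or 5, with edgeR adjusted p of 0.0752, 0.0849, 0.0641, 0.112, 0.0924 and 0.0516. It was also lost with the total count as the scaling (0.0503), with the replicate block (0.0673) and in batch 2 alone (0.485).

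The ratio of this peak to its larger neighbour compares the 2 within a library, without any scaling between libraries. The ratio was 0.222 and 0.235 in the batch 1 controls and 0.143 and 0.173 in the batch 1 cKO animals. In batch 2 it was 0.317, 0.294 and 0.372 in controls and 0.302, 0.289 and 0.294 in cKO animals. The cKO animals had the lower ratio in batch 1, and the groups overlapped in batch 2.

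Another annotated start of Zfhx3 (peak from 107940120 to 107949020) lies 330.3 kb before the RefSeq body. It held 98.6 and 98.8 CPM in the batch 1 controls, 105, 109 and 109 CPM in the batch 2 controls, 75.1 and 71.1 CPM in the batch 1 cKO animals and 105, 86.0 and 96.4 CPM in those of batch 2. In batch 2 the lowest control and the highest cKO animal both rounded to 105 CPM, the control being higher, and the log2 fold change was -0.26 ± 0.07. This call was also kept in only 4 of 10 fits without 1 animal. It was lost without control replicates 1, 2 or 4 or cKO replicates 1, 2 or 4, with edgeR adjusted p of 0.0639, 0.071, 0.0572, 0.077, 0.122 and 0.094, and with DESeq2 (0.101), the replicate block (0.0516) and the total count (0.0663). The peak after it, in an intron of that transcript (107949980 to 107952460), was not called at 14.6 ± 3.86 and 12.0 ± 3.25 CPM.

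**Figure D1:**
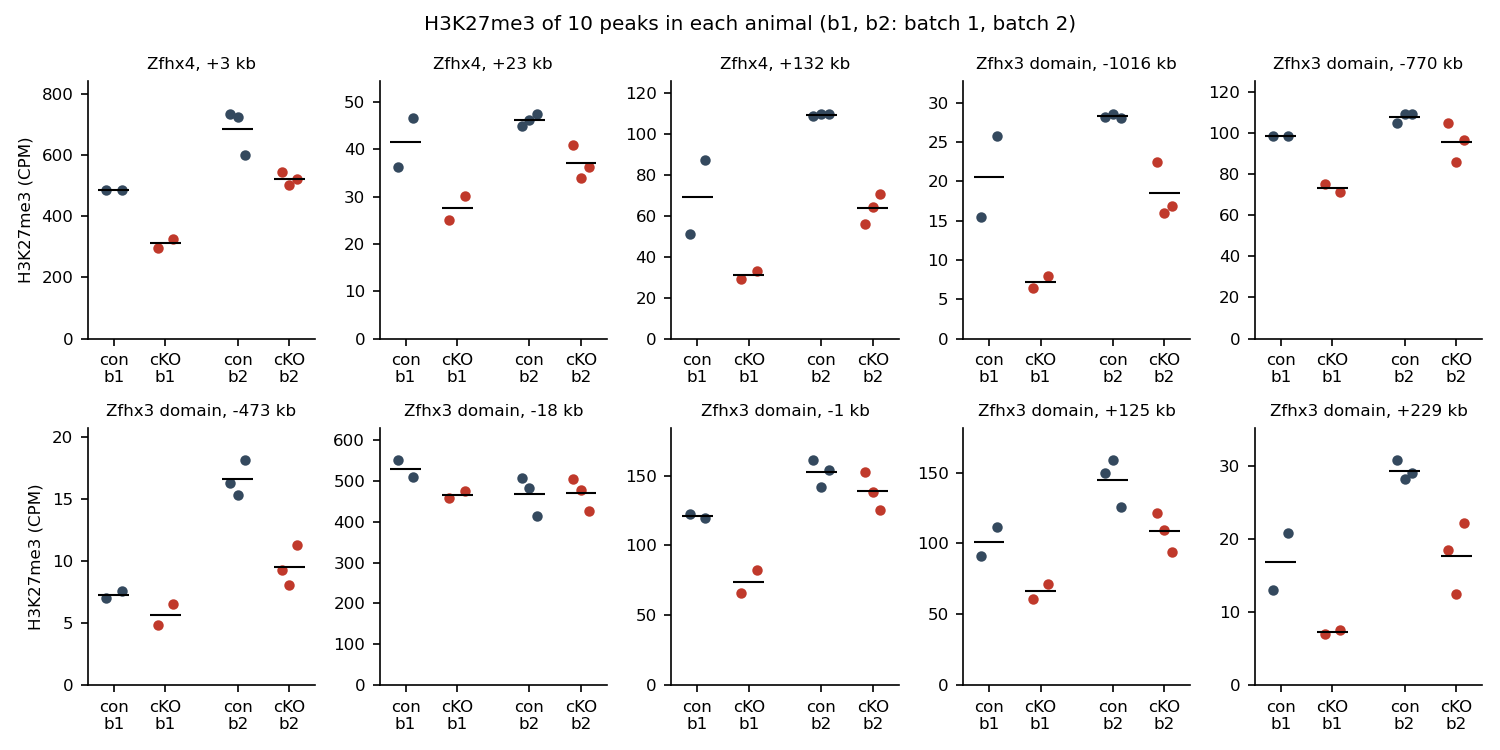
H3K27me3 (CPM, axes from 0) in each animal at the 10 peaks described one by one, with controls dark, cKO animals red and lines at the means of batch 1 (b1, 2 animals per genotype) and batch 2 (b2, 3 per genotype). Titles give the distance of the peak centre from the start used in the map. At -18 kb of the Zfhx3 domain, the cKO animals lie among the controls in batch 2. At -1 kb only cKO replicate 3 (152 CPM) does, and the other cKO animals of batch 2 lie below every control of that batch.

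The other peaks inside the RefSeq body were smaller, and the 3 of them that were called lay in introns. The peak from 108835660 to 108844220, named Gm38318 in the table, held 91.1 and 111 CPM in the batch 1 controls, 149, 159 and 126 CPM in the batch 2 controls, 60.8 and 71.6 CPM in the batch 1 cKO animals and 122, 109.6 and 94.1 CPM in those of batch 2. The groups were separate in each batch, and the log2 fold change was -0.48 ± 0.09. The peak from 108942320 to 108944910, near the microRNA gene Mir3108, held 12.9 and 20.8 CPM in the batch 1 controls and 30.8, 28.2 and 29.0 CPM in the batch 2 controls. The cKO animals held 6.93 and 7.51 CPM in batch 1 and 18.5, 12.5 and 22.1 CPM in batch 2. Its log2 fold change of -0.84 ± 0.16 was the largest decrease of the domain.

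Before the RefSeq body, the intronic peak from 108241100 to 108242280 held 6.97 and 7.55 CPM in the batch 1 controls and 16.3, 15.3 and 18.1 CPM in the batch 2 controls. The cKO animals held 4.80 and 6.51 CPM in batch 1 and 9.24, 8.02 and 11.3 CPM in batch 2, a log2 fold change of -0.69 ± 0.16. It was not called with DESeq2 (adjusted p = 0.151) or with the first (edgeR, 0.114) or the second duplicate alone (0.0987). Within each batch all cKO animals were below the controls. The intergenic peak from 107696950 to 107699850, named Gm8940, lies 579 kb before the RefSeq body. It held 15.4 and 25.8 CPM in the batch 1 controls, 28.2, 28.6 and 28.1 CPM in the batch 2 controls, 6.40 and 8.02 CPM in the batch 1 cKO animals and 22.5, 16.0 and 16.9 CPM in those of batch 2. Its log2 fold change was -0.82 ± 0.16, 2.86-fold lower in batch 1 and 1.53-fold in batch 2.

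Over the rest of the domain the levels were low, with mean control values of 3.26 to 60.5 CPM. Over the whole domain, 4 of the 13 peaks that overlap the RefSeq body were called lower. The counts were 4 of the 7 before that body and 1 of the 3 tested after it. By annotation, 3 of 6 promoter peaks, 4 of 12 intronic peaks and 2 of 5 tested intergenic peaks of the whole domain were called. Over all tested peaks of any annotation the share called lower was 7.38%, and no share per annotation is given. The 2 promoter peaks of Gm39244 were not called, at 7.60 ± 2.63 and 7.96 ± 3.27 CPM in controls and 6.36 ± 2.61 and 5.49 ± 2.75 CPM in cKO. The peak of the domain's last start, that of the long noncoding RNA D030068K23Rik (109248330 to 109251050), was called (log2 fold change -0.52 ± 0.14), but not without control replicate 3 (edgeR adjusted p = 0.0831) or cKO replicate 3 (0.0819), nor with the replicate block (0.0554). The intronic peak from 108785770 to 108790000 had a log2 fold change of -0.42 ± 0.13 and was called in only 2 of the 10 fits without 1 animal, those without control replicate 5 and cKO replicate 5, with edgeR adjusted p of up to 0.144 in the others (without control replicate 4) and 0.135 with DESeq2. In all, 8 of the 12 called peaks of the set were called in each of these 10 fits.

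At the borders of the domain, the first peak inside (107603290 to 107606310) averaged 39.4 ± 5.40 CPM over controls and 26.8 ± 9.69 CPM over cKO animals, and the next one outside, 10.2 kb before it near Psmd7, a proteasome subunit gene, held 9.41 ± 2.07 and 10.2 ± 4.03 CPM. At the other border, the last peak inside was that of D030068K23Rik at 36.1 ± 14.1 and 25.6 ± 14.3 CPM. The next one outside lay 59.4 kb on and held 12.2 ± 3.42 and 8.67 ± 3.75 CPM.

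Summed over its 24 peaks, the domain averaged 1290.0 ± 115 CPM over the 5 controls and 1088 ± 178 CPM over the 5 cKO animals, lower by a factor of 1.31 in batch 1 and 1.12 in batch 2. The largest peak held 38.2% of the domain's signal in controls. Without that peak the domain held 623 and 676 CPM in the batch 1 controls, 916, 909 and 859.5 CPM in the batch 2 controls, 411 and 456 CPM in the batch 1 cKO animals and 776, 718 and 736 CPM in those of batch 2. The groups were then separate in each batch, 1.50-fold and 1.20-fold lower in cKO. The share of the domain's signal in the largest peak was 42.9% to 46.9% in the batch 1 controls, 51.0% to 52.7% in the batch 1 cKO animals, 32.5% to 35.7% in the batch 2 controls and 36.7% to 40.0% in the batch 2 cKO animals. The sum over the 5 peaks named Zfhx3, which include the largest, averaged 764 ± 37.8 CPM over controls and 688 ± 69.3 CPM over cKO animals. The factor was 1.22 in batch 1 and 1.05 in batch 2, where the groups overlapped.

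**Figure D2:**
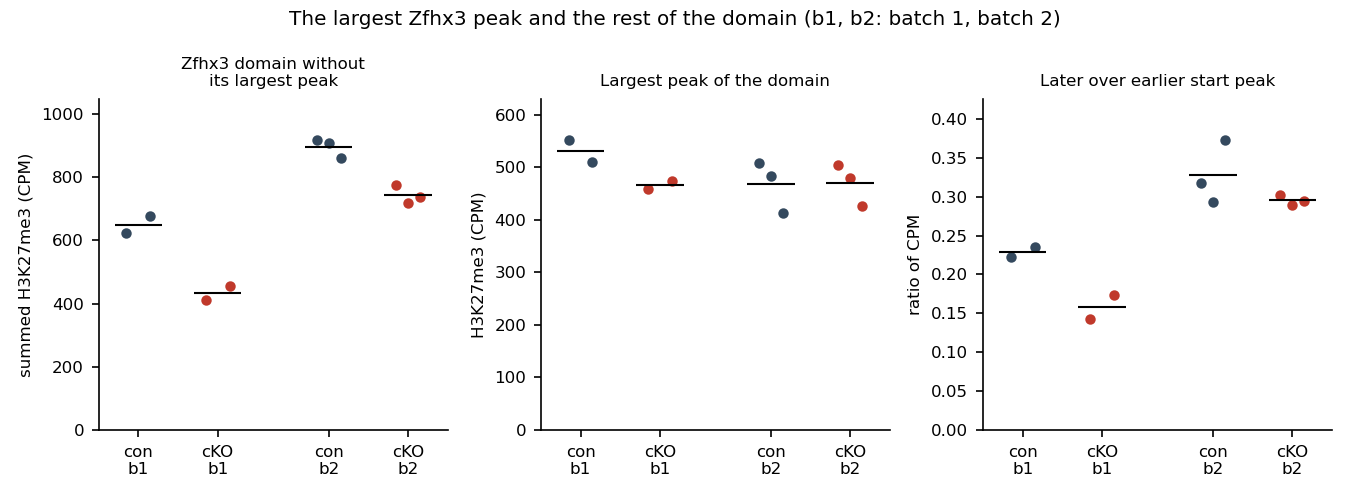
Values per animal (points, controls dark and cKO red, lines at the means) in batch 1 (b1) and batch 2 (b2) for the summed signal of the domain without its largest peak (CPM), the largest peak (CPM) and the ratio of the later to the earlier start peak. The sum without the largest peak runs from 411 to 776 CPM in cKO and from 623 to 916 CPM in controls and is separate in each batch, whereas the largest peak overlaps in batch 2.

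The level of these peaks also differed between the batches. That contrast did not choose them, but it was not independent of the choice, as the shares among peaks called lower show below. This test of the batch term was chosen after seeing the data. Of the 26 tested peaks, 19 were higher in batch 2 and 0 lower (edgeR, adjusted p under 0.05), with 6.1% of all tested peaks called higher in batch 2 and 6.19% called lower. The median log2 fold change of batch 2 over batch 1 was 0.63 for the set and 0.01 over all tested peaks. The count stayed between 16 and 21 under other scalings, filters, duplicates and without each animal. The largest Zfhx3 peak was not among them (-0.08), nor was the second start of Zfhx4 (0.29, adjusted p = 0.0883). Peaks with lower H3K27me3 in the cKO were often higher in batch 2 across the genome, at 607 of 1204 (50.4%), against 2.57% of the other tested peaks. In the set these were 11 of the 12 peaks called lower and 8 of the other 14. The batches differed in animals, in the share of males, in the CUT&RUN run and in libraries per animal, of which batch 2 had 2. Batch 1 was 1 litter and batch 2 held littermates, so litter may go with batch too. These cannot be told apart.

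**Figure D3:**
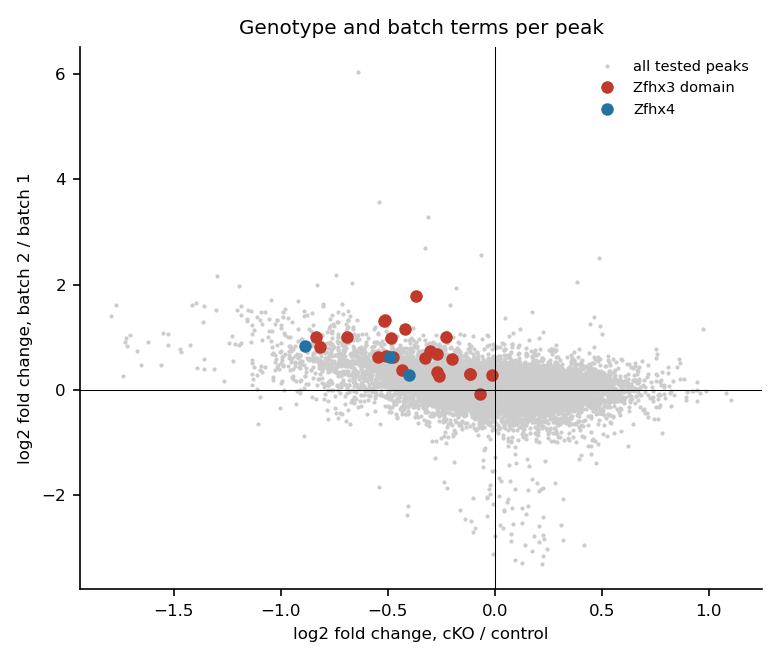
Log2 fold change of cKO over control (horizontal) against that of batch 2 over batch 1 (vertical) for each of 16307 tested peaks (grey), the Zfhx3 domain (red) and Zfhx4 (blue), both terms from 1 fit. The 26 tested peaks of the set lie left of the vertical line, and 25 of them above the horizontal one.

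Whether the decrease differed between the batches was tested for each peak. In a test of the batch by genotype difference over all peaks, 0 of the 26 passed with edgeR (lowest adjusted p = 0.61, against 0.0123% of all tested peaks called) or with DESeq2. An unadjusted p under 0.05 was reached by 4 of the 26, against 3.94% of all. The lowest was 0.00179, at the start peak of Zfhx3 that holds the printed sequence. The difference was positive at 22 of 26 peaks, and at 53.7% of all tested peaks. At a lowered peak this sign is a smaller decrease in batch 2. All 26 were negative in the fit of cKO against control, against 45.6% of all tested peaks. No share among lowered peaks is given for this sign or for the unadjusted p, so both counts describe the set only.

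Control replicate 1 carries Cre and 1 floxed allele, and it was below control replicate 2, its partner in batch 1, at 20 of 26 peaks (76.9%), against 49.8% of all tested peaks. These peaks lie at 2 loci and the values come from a single pair of animals. No share among lowered peaks is given, so the count describes this pair only. The gap was wide at the intronic Zfhx4 peak (51.3 against 87.5 CPM) and absent at its main peak (487 against 488 CPM). Its part in the results was measured by leaving it out. Without this animal 9 peaks of the set were called lower, against 12 with all animals. Over all tested peaks 1329 were called lower without it, against 1204. The set count was also 9 without control replicates 2 or 3 or cKO replicates 1 or 2, so the drop is not particular to this animal. The log2 ratio of the summed signal was -0.53 for Zfhx4 in place of -0.54 and -0.24 for the domain in place of -0.26. The 2 animals also differ in sex, and single animals do not separate sex from genotype.

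Of the other listed genes of the zinc finger homeobox class, 1 of 7 tested genes was called lower in the cKO. Of 12 listed genes, 7 could be tested with counts summed per gene, and 5 (Adnp, Tshz3, Zhx1, Zhx3 and Homez) had no peak assigned. The fit called 1 of the 7 lower and 0 higher (edgeR, over 11324 genes, of which 8.29% were called lower and 1.48% higher). An unadjusted p under 0.05 was reached by 3 of the 7 (Tshz1 and Tshz2 lower, Zhx2 higher) and by 2607 of the 11324 genes. The median log2 fold change of the 7 was -0.06, beside 0.02 over all genes. The gene called was Tshz2, a teashirt-family factor, at 205 ± 22.7 CPM in controls and 166 ± 20.5 CPM in cKO (log2 fold change -0.32 ± 0.06, adjusted p = 8.98e-04, lower in 5 of 5 cKO animals). Tshz1 had -0.30 ± 0.13, Zeb2, a repressor of epithelial genes, -0.34 ± 0.18, and Zeb1 -0.06 ± 0.13, none of them called. Zfhx2, a further paralog, averaged 12.8 ± 1.15 CPM over controls and 13.1 ± 2.33 CPM over cKO animals (0.01 ± 0.15). Zhx2 had the only clearly positive value (0.41 ± 0.13, adjusted p = 0.0628), which passed the threshold in some fits without 1 animal (lowest adjusted p = 0.0471). In the same fit Zfhx4 had -0.55 ± 0.07 and was called, and Zfhx3 had -0.17 ± 0.06 and was not.

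Genes whose summed H3K27me3 followed that of each locus over the 10 animals were listed by Pearson r of log2 CPM centred within batches, over 3343 genes with a mean count of at least 100. The animals share their libraries and genotypes, so these r values describe likeness and have no test. For Zfhx4 the 5 most alike were Zbbx (r = 0.995), Esrrg (0.992), Celrr (0.990), Lnpk (0.989) and Mir100hg (0.989). Their log2 fold changes ran from -0.44 (Mir100hg) to -0.18 (Celrr). For Zfhx3 they were Lmx1b (0.974), Fst (0.972), Lin28a (0.972), Pax3 (0.962) and Mapk11 (0.962), with log2 fold changes from -0.38 (Lin28a) to -0.14 (Pax3). The r between Zfhx3 and Zfhx4 themselves was 0.853.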

How the data were processed

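The table deposited by the authors gives raw counts at each peak in 16 H3K27me3 libraries and has no IgG column, so 6 IgG libraries were not used here. The submitters' processing notes list mm10, MACS2, SAMtools, DESeq2 1.38.1 and Novoalign 4.02.02 without role or order. For read counting, duplicate removal and the libraries behind the peak calls, the settings were not given in the sources used here. The deposited table also holds the authors' mean signal, log2 fold change, its standard error, a test score, p-values and adjusted p-values, with no contrast named.

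Technical duplicates were summed, leaving 5 animals per group. Peaks were filtered with filterByExpr, scaled with TMM factors and tested with edgeR 4.0.16 (glmQLFit, glmQLFTest, R 4.3.3), with an additive batch term, and p-values were adjusted by Benjamini-Hochberg over every tested peak. The standard error was approximated as the log2 fold change divided by the square root of F. CPM use TMM-scaled reads in tested peaks, so a level is relative to all peaks. DESeq2 1.42.0 was an alternative test. The steps were tested on simulated counts. Plots used Python 3.11.15 and matplotlib 3.10.9. P-values set each difference against the spread between animals of a batch and genotype, estimated in part from all peaks. Spread between litters was not measured apart from batch.

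The members, gene lists and tests were chosen with earlier results of these data known. Peaks described animal by animal were, per locus, those over a start of the gene, the 3 with most reads and the 3 with the largest change; 3 Zfhx3 peaks tied as nearest to a start and all were kept. Part of the list of retinal regulators used to check the tissue is not reported here.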

Additional observations from a re-analysis of the deposited data

Results flagged for a closer look

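In 2 of 26 groups of 5 animals examined (the 10 peaks described one by one and 3 sums), 1 animal stood apart from the other 4 by more than Dixon's limit for 5 values. Chance flags about 1 in 20 groups of like samples, but these groups join both batches, which differ in level at most of these peaks. Both were control replicate 1 (batch 1), which was the lowest control at the second start of Zfhx4 (chromosome 3 from 5238270), with 36.3 CPM, and at the intergenic peak named Gm8940 (chromosome 8 from 107696950), with 15.4 CPM. Without it, the log2 fold changes of these peaks were -0.43 and -0.85, and both were still called lower.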

How the results depend on the processing

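The call count of the set was 12, and 9 to 13 without each animal in turn. It was 0 without a batch term, 0 in batch 1 alone (14 of the 20 peaks tested there had an unadjusted p under 0.05, edgeR) and 7 at an adjusted p under 0.01. The share of all peaks at that unadjusted p in batch 1 alone is not given, so the 14 of 20 describes the set only. No member was called higher in any setting. Over all tested peaks, 1204 were called lower and 238 higher. The lower count was 338 without a batch term, 0 in batch 1 alone, 793 at 0.01 and 950 to 1366 without each animal. The higher count was 467 with the total count as the scaling, 26 without a batch term, 0 in batch 1 alone, 107 and 116 with the first or second duplicate only, 28 with DESeq2, 46 at 0.01, 516 at 0.1 and 110 to 288 without each animal. The domain sum had a log2 ratio of -0.26, with -0.18 in batch 2 alone and -0.39 in batch 1 alone. In batch 1 alone the sums of Zfhx3 and Zfhx4 had -0.29 and -0.69, against -0.16 and -0.54. Of the zinc finger homeobox genes 1 was called (Tshz2, lower), 2 (Tshz2 lower and Zhx2 higher) with the total count, the replicate block, the first duplicate only, and without control replicates 4 or 5, and 0 without a batch term or in batch 1 alone; over the fits without each animal it was 1 to 2. The log2 fold change turned positive at 2 weak uncalled peaks. At 107879440 it was 0.16 in batch 1 alone and 0.039 with the second duplicate only. At 108746400 it was 0.028 with the total count, 0.19 in batch 2 alone and from -0.186 to 0.151 without each animal in turn (positive without control replicates 2 or 5 or cKO replicates 1, 2 or 4). The causes were not tested. With the replicate block in place of the batch term, 8 of the 12 calls were kept and 1331 peaks were called in all. Same-numbered animals of batch 2 did not deviate together beyond their batch (r of 0.094, 0.014 and 0.036). In batch 1 the r was -0.444 for both numbers. With 2 animals per genotype the deviations mirror each other, so this value cannot show whether same-numbered animals belong together. Of the 12 calls, 4 were lost without some single animal.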

Other observations

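The log2 fold changes in the authors' deposited table, whose headers name no contrast, followed the batches at these peaks and not the genotypes. In the authors' deposited table they were negative at 26 of the 27 peaks, and at the 26 tested peaks they lay within 0.0389 of the log2 ratio of batch 1 to batch 2 fitted here. Their distance from the log2 ratio of cKO to control reached 1.44, at the intronic Zfhx3 peak from 108467770, where the authors' deposited table gives -1.81, the log2 ratio of batch 2 to batch 1 was 1.77 and that of cKO to control was -0.37. The test statistic in the authors' deposited table had the opposite sign to its log2 fold change at 27 of 27 peaks. These deposited values therefore say nothing here about cKO against control.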
